A study of Nematostella vectensis with 10 samples.

Results

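Genes whose transcripts rose with age in the larval body of the sea anemone *Nematostella vectensis*, with no matching rise in the apical tissue, were taken from 10 RNA-seq libraries. A gene was included if its lowest late planula body library was at least 2 times its highest mid-planula body library, its mean late body level was at least 5 CPM (counts per 1000000 counts after TMM scaling, the trimmed mean of M-values), and its mean late apical level was less than 25% above its mean mid-planula apical level. Of 23333 gene models with at least 15 counts in total, 899 met the body rise, 466 of these also met the level and 98 also met the apical limit. Another 18 were left out because they were confined to the body, with a lowest body level at least 16 times the highest apical level and a mean body level of at least 10 CPM. The remaining 80 genes are described here, and all 80 passed the expression filter of the test. The other 368 genes that met the body rise and the level did not meet the apical limit, 6 of them because all their apical libraries were at 0 counts, and are used for comparison.

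The samples were apical tissue, which carries the apical organ, and the rest of the larval body, cut apart with needles. At least 50 larvae, from 3 batches or more, went into each sample. Mid-planulae (50-60 h post fertilisation, labelled planula) gave 2 body and 2 apical libraries, and late planulae (75-85 h) gave 3 of each. No strain, treatment or genetic change was labelled for any group. Whether the libraries of a group came from separate batches was not stated, so the spread between them may be partly technical.

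The planula swims with its apical organ, a ciliated sensory structure at the aboral end, in front. The rest of the body holds the outer and inner epithelia, the pharynx and the early mesenteries, and it contains gland, stinging and nerve cells that differentiate as the larva approaches settlement and its change into a polyp. In pooled tissue, a higher level of a transcript can come from more cells of a type or from more RNA per cell, and these cannot be told apart here. Only NVE21509 of the 80 genes carried a name in the sources used, and the others are given by their gene model identifier without a role.

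Total counts were 14364093 to 27730410 per library, so that 3 counts, taken as the smallest level a library can show, were worth 0.104 to 0.223 CPM. Most small counts were even numbers (70.3% to 83.9% of counts from 1 to 20). Whether each mate of a pair was counted was not stated, and if so the counts hold fewer independent reads than they show. The summed level of 9 apical ring and spot genes, among them *ISX-like* and *PoxA*, was 1787 to 4327 CPM in the apical libraries and 123.6 to 218.2 CPM in the body libraries. The paper picked these genes as apically enriched from its own tissue comparison, so the gap is partly built in and cannot check the dissection. Markers of gland/secretory-cell type 3 were also higher in the apical tissue. In mid-planulae NVE23674 averaged 68.4 CPM there against 16.4 CPM in the body, and NVE23675 75.5 against 15.35 CPM. In late planulae the values were 66.0 against 10.3 CPM and 62.3 against 9.06 CPM. The paper found this cell type throughout the animal. The cause was not tested. Mid-planula apical replicate 1 stood apart, as it held body transcripts that were scarcer in the other apical libraries. The 18 genes confined to the body summed to 86.6 CPM in it, against 6.58 CPM in replicate 2 and 5.01 to 6.17 CPM in the late apical libraries. NVE9071 alone gave 65.2 CPM of the sum in replicate 1 and 2.997 CPM in replicate 2. These 18 genes had met the apical limit, which favours a high mid-planula apical mean, so the gap to the late apical libraries is partly built in. Since this library raises the mid-planula apical mean, it bears on whether a gene meets the apical limit, and results that rest on it are given with and without it.

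The 80 genes covered a wide range of levels. Their mean late body levels ran from 5.24 to 2360 CPM with a median of 17.1 CPM, and 14 genes reached 100 CPM while 25 stayed under 10 CPM. The mean level in the late body was 2.44 to 69.7 times that of the mid-planula body (median 3.97), with 40 genes under 4-fold, 33 from 4-fold to under 8-fold and 7 at 8-fold or more. In the apical tissue the late mean was at most 0.5 times the mid-planula mean for 23 genes, between 0.5 and 1 times for 30 and at or above 1 times, within the 25% limit, for 27. The genes were chosen by these values, which therefore carry no test. In the edgeR fit of the 4 groups, 40 of the 80 passed an adjusted p of 0.05 as higher in the late body, against 1.99% of all genes tested, and nothing is read from that count. For the difference between tissues in the change with stage, 3 of the 80 passed as rising more in the body, against 0.0231% of all genes. In the apical tissue 2 of the 80 passed as lower in the late planula, against 0.922% of all genes, and 0 as higher, against 1.18%. In either direction 13 of the 80 (16.2%) had an unadjusted p under 0.05 there, against 16.3% of all genes, and DESeq2 called 5, against 6.66% of all genes.

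**Figure D1:**
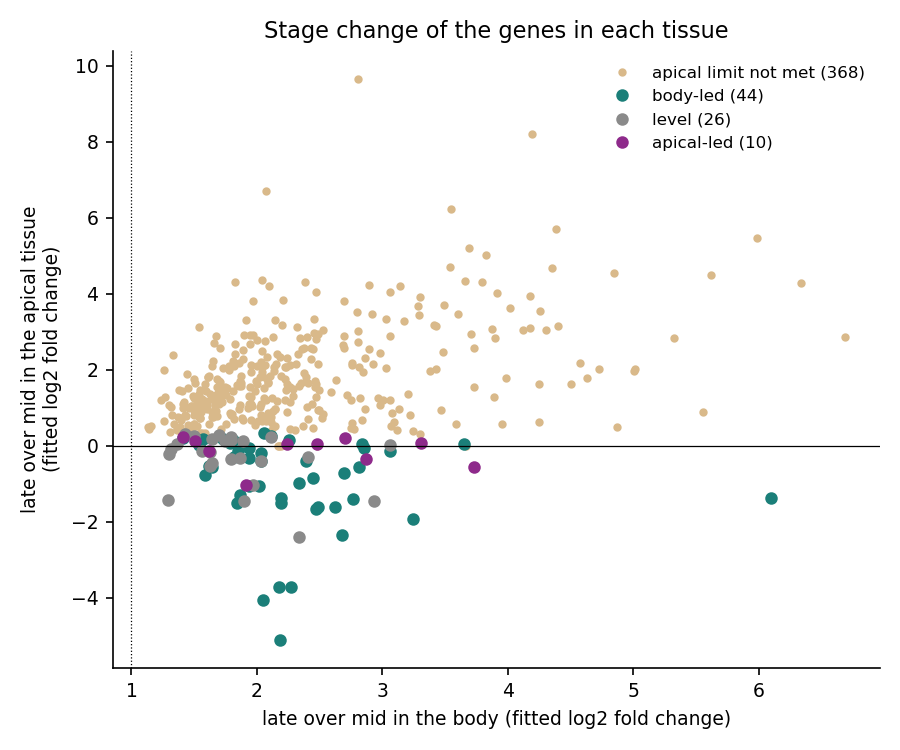
Fitted log2 change from mid to late planula in the body (x axis) and in the apical tissue (y axis). Coloured points are the 80 genes in their 3 classes, pale points the 368 genes that met the body rise and level but not the apical limit, and the dotted line marks a 2-fold change. The 80 genes lie at or below the apical zero line or slightly above it, with medians of 2.0 in the body and -0.30 in the apical tissue.

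Each body library was also left out in turn, with the same rule applied to the rest, to see its level in genes chosen without it. Without late planula body replicate 3, 87 genes were chosen, and in 89.7% of them the left-out library was at least 2 times the highest mid-planula body library, against 8.13% of all genes with the late body level. The share was 74.8% of 107 genes for late replicate 1 (8.77% of all genes) and 71.9% of 114 genes for late replicate 2 (6.5%). For the mid-planula body the left-out library lay at least 2-fold under the lowest late library in 60.3% of 131 genes for replicate 1 (5.95% of all) and in 52.4% of 147 genes for replicate 2 (6.25%). The left-out library was set against libraries that the rule had used to choose these genes, whereas the shares of all genes carry no such choice, so the gap between the shares is partly built in. The smallest share was that of mid-planula body replicate 2.

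The 80 genes differed in where they were expressed before the rise. They were sorted, after their values had been seen, by the ratio of the mean mid-planula apical to the mean mid-planula body level. In 44 genes, called body-led, this ratio was at most 0.5. In 26, the level class, it lay between 0.5 and 2, and in 10, called apical-led, it was at least 2. The summed level of the body-led genes was 1109 and 756.5 CPM in the mid-planula body and 4443, 3471 and 4358 CPM in the late body, and it was 170.4 and 141.4 CPM in the mid-planula apical tissue and 122.3, 125.6 and 166.7 CPM in the late apical tissue. The level class summed to 1343 and 1321 CPM in the mid-planula body, 1007 and 1000 CPM in the mid-planula apical tissue, 4457, 4045 and 4134 CPM in the late body and 978.8, 1318 and 1183 CPM in the late apical tissue. The apical-led genes summed to 130 and 88.6 CPM in the mid-planula body against 400.3 and 437.1 CPM in the mid-planula apical tissue, and to 503.7, 764.1 and 836.6 CPM in the late body against 457.6, 431.7 and 370.4 CPM in the late apical tissue. In every class the late body sums were the highest, and the apical sums of the 2 stages lay close together, both of which the rule favours. Of the level class sums, NVE25290 alone gave 2571, 2399 and 2124 CPM in the late body and 453.9 to 681.2 CPM in the apical libraries. The apical-led sums rest largely on NVE20160, which alone gave 298.5, 563.7 and 568.8 CPM in the late body. Gene by gene, every late body library lay above every late apical library in 6 of 10 apical-led genes, against 14.4% of all genes. The rule favours this by asking for a body rise with a limited apical change, so nothing is read from that count.

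**Figure D2:**
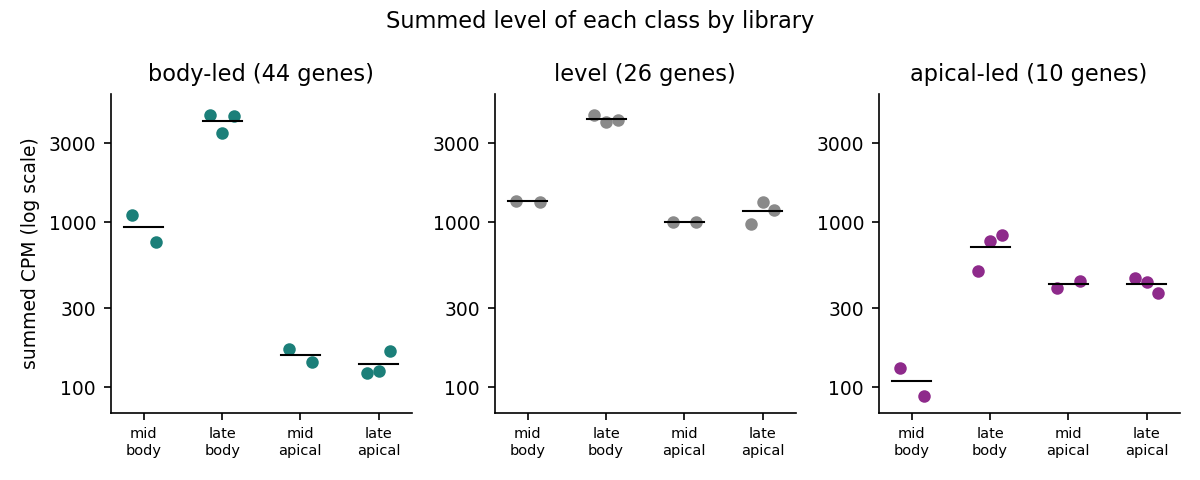
Summed CPM (log scale, the same in each panel) of the body-led, level and apical-led genes. Points are libraries and lines the group means. The late body libraries of the apical-led genes (503.7 to 836.6 CPM) lie above their apical libraries, although their mid-planula body libraries (130 and 88.6 CPM) lie below them. NVE20160 alone gives 298.5 to 568.8 CPM of these late body sums.

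The level class held the most abundant gene of the set, NVE25290. It was at 724.6 and 740.2 CPM in the mid-planula body, 2571, 2399 and 2124 CPM in the late body, 453.9 and 534.4 CPM in the mid-planula apical tissue and 493.6, 681.2 and 625.2 CPM in the late apical tissue. All 3 late body libraries lay far above the other libraries, whose values spanned 453.9 to 740.2 CPM. NVE12992, the next gene of this class, was at 310.0 and 198.6 CPM in the mid-planula body and at 721.9, 662.3 and 650.5 CPM in the late body. Its apical libraries held 322.4 and 220.7 CPM in mid-planulae and 284.0, 437.7 and 286.3 CPM in late planulae, overlapping with the mid-planula body. NVE2426 rose from 138.9 and 183.5 CPM to 477.4, 459.0 and 727.9 CPM in the body, where the late replicates were unequal, and stayed at 65.2 to 148.6 CPM in the apical libraries.

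In other genes of the level class the apical tissue went down while the body went up. NVE253 was at 21.3 and 28.8 CPM in the mid-planula body and at 95.3, 90.3 and 92.7 CPM in the late body. In the apical tissue it was at 15.03 and 19.2 CPM in mid-planulae and at 8.37, 4.29 and 6.09 CPM in late planulae, so the stages did not overlap in either tissue and moved in opposite directions. NVE6370, chosen after its values were seen, was at 2.103 and 1.62 CPM in the mid-planula body, at 15.6, 11.8 and 15.1 CPM in the late body, at 3.02 and 2.997 CPM in the mid-planula apical tissue and at 0.881, 1.13 and 1.26 CPM in the late apical tissue. It thus lay higher in the apical than in the body libraries of the mid-planula and 13.0 times higher in the body in the late planula. NVE3642, a body-led gene chosen in the same way, went from 6.09 and 6.75 CPM to 39.5, 26.8 and 30.3 CPM in the body and from 3.06 and 2.35 CPM to 1.65, 1.26 and 1.19 CPM in the apical tissue, with no overlap of the stages in either tissue. NVE253, NVE6370 and NVE3642 are the 3 genes that passed the test of a different stage change in the tissues. The body rise exceeded the apical change by 3.35 (SE 0.41), 4.39 (SE 0.50) and 3.32 (SE 0.43) on the log2 scale. Without mid-planula apical replicate 1 the differences were 3.52, 4.39 and 3.10. That fit holds 1 mid-planula apical library, so whether a gene passes in it is not read.

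NVE25219 was at 55.8 and 66.2 CPM in the mid-planula body and at 233.0, 140.4 and 192.5 CPM in the late body, with 29.0 and 35.4 CPM in the mid-planula and 26.4, 17.7 and 25.9 CPM in the late apical tissue. NVE141 was at 18.8 and 26.6 CPM in the mid-planula body and at 74.0, 54.7 and 80.8 CPM in the late body. Its late apical libraries held 5.62, 19.8 and 4.60 CPM against 13.3 and 15.9 CPM in the mid-planula, so the late replicates lay on both sides of the mid-planula values. NVE25219 had no such overlap, but its apical fall was small, to 0.725 times the mid-planula mean.

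The only gene of the set with a name was NVE21509, annotated as a cholinergic receptor, a class of receptors that respond to acetylcholine. It was at 3.16 and 2.93 CPM in the mid-planula body, 6.74, 7.30 and 8.17 CPM in the late body, 2.47 and 2.74 CPM in the mid-planula apical tissue and 0.881, 0.948 and 1.04 CPM in the late apical tissue. Every late body library lay above every mid-planula library, and every late apical library lay below them. The late body mean was 2.44 times the mid-planula mean, the smallest ratio among the 80 genes, and the late apical mean was 0.368 times the mid-planula mean. In the late planula the gene was 7.75 times higher in the body, and the fitted apical over body difference was -2.95 (SE 0.35) on the log2 scale, against -0.22 (SE 0.39) in the mid-planula.

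**Figure D3:**
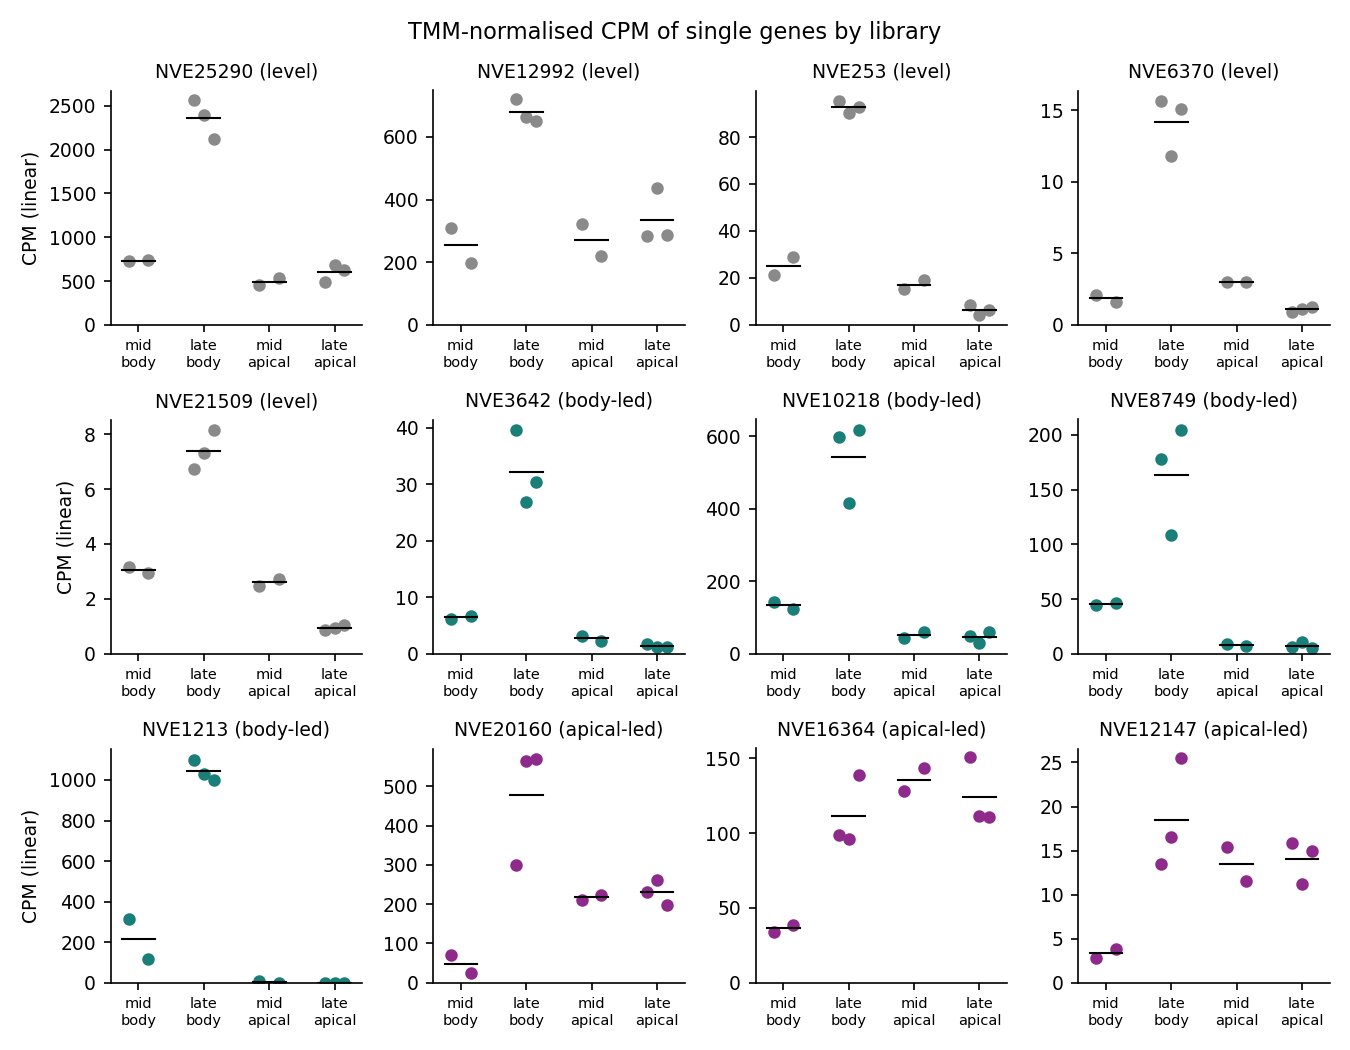
CPM (linear scale from 0) of 12 of the 80 genes in the 4 groups. Points are libraries, lines are group means and the class is given in each title. NVE253 and NVE6370 fell in the apical tissue while they rose in the body, and NVE16364 reached in the late body (96.1 to 138.8 CPM) the levels its apical libraries held at both stages.

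The body-led genes were already higher in the body in the mid-planula. The most abundant, NVE1213, was at 316.8 and 116.8 CPM in the mid-planula body and at 1100, 1027 and 1002 CPM in the late body, but at 0.220, 0.271 and 0.445 CPM in the late apical tissue. The mid-planula apical libraries held 7.71 and 0 CPM, that is 222 counts and 0 counts. The late body libraries lay close together, and the body mean of the late planula was 3341 times the apical mean. NVE13685 was at 185.4 and 114.1 CPM in the mid-planula body, 759.7, 529.7 and 752.7 CPM in the late body, 8.68 and 0.651 CPM in the mid-planula apical tissue and 2.42, 1.17 and 2.004 CPM in the late apical tissue. NVE18257 was at 43.5 and 30.4 CPM in the mid-planula body, at 255.6, 181.2 and 271.1 CPM in the late body and at or under 0.632 CPM in the late apical libraries. Its mid-planula apical libraries held 3.40 and 0 CPM. In these 3 genes mid-planula apical replicate 1 held nearly all of the apical transcripts of its stage.

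Other body-led genes had apical transcripts in both mid-planula libraries. NVE10218 was at 143.4 and 123.2 CPM in the mid-planula body, at 596.9, 415.2 and 616.2 CPM in the late body, and at 44.1 and 61.3 CPM in the mid-planula and 49.2, 28.4 and 59.9 CPM in the late apical tissue. The apical stages overlapped while the body stages lay far apart. NVE8749, chosen after its values were seen, was at 44.8 and 46.5 CPM in the mid-planula body, 177.8, 108.9 and 204.2 CPM in the late body, 8.68 and 7.49 CPM in the mid-planula apical tissue and 5.95, 10.7 and 5.49 CPM in the late apical tissue. NVE8748, whose identifier is the next in number, was at 8.52 and 9.85 CPM in the mid-planula body and at 37.4, 24.0 and 19.98 CPM in the late body, with 0.625 and 1.56 CPM in the mid-planula and 0.496, 1.17 and 1.93 CPM in the late apical tissue. Both genes of this pair had late replicates of unequal level and stayed far lower in the apical tissue.

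Among genes with a mean late body level of at least 20 CPM, 6 of the 8 largest fitted rises belonged to body-led genes. NVE20160 and NVE3048, both apical-led, gave the rest. Body-led genes made up 44 of the 80, and large rises were not particular to them. The median fitted log2 rise in the body was 2.14 in the body-led, 1.77 in the level and 2.36 in the apical-led class. NVE21084 was at 12.0 and 8.91 CPM in the mid-planula body and at 81.3, 60.9 and 153.2 CPM in the late body, a ratio of means of 9.43, and its 5 apical libraries held 0 to 0.903 CPM. NVE11533 went from 7.98 and 5.18 CPM to 45.7, 38.2 and 50.2 CPM in the body and was at 0 to 0.912 CPM in the apical libraries. NVE20868 went from 4.75 and 2.79 CPM to 24.1, 26.7 and 22.4 CPM, and its apical libraries held 2.43 and 0.782 CPM in mid-planulae and 0.826, 0.903 and 1.34 CPM in late planulae. The late body libraries of NVE20868 and NVE11533 lay close together, whereas replicate 3 of NVE21084 was the highest by far. NVE21873 went from 5.004 and 4.68 CPM to 35.4, 17.4 and 36.2 CPM and NVE1337 from 4.64 and 3.96 CPM to 21.7, 18.8 and 26.8 CPM. Each was at or under 1.56 CPM in the apical libraries.

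In 3 genes, named after their values were seen, no late apical library held more than 3 counts, and folds against that floor are lower bounds. NVE26011 had the largest rise of the set, from 0.218 and 0.225 CPM in the mid-planula body, or 6 and 5 counts, to 15.1, 7.78 and 23.4 CPM in the late body. The late body mean was 69.7 times the mid-planula mean, a ratio that rests on few mid-planula counts. Against the late apical floor NVE26011 was at least 88.5-fold higher in the late body. NVE21880 was at least 63.0-fold and NVE22596 at least 32.1-fold higher in the late body than the mean late apical floor of 3 counts per library. NVE22596 was at 0.979 and 1.49 CPM in the mid-planula body and at 8.75, 4.81 and 3.25 CPM in the late body, and its late apical libraries held 0 counts. The late body replicates of these genes differed more than those of NVE1213.

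How far the apical limit of the body-led genes rests on mid-planula apical replicate 1 was examined directly. Of the 44 genes, 29 were higher in replicate 1 than in replicate 2, and 21 were at least 2 times higher, against 1 of 26 in the level class and 0 of 10 in the apical-led class. Against replicate 2 alone the apical limit was met by 23 of 44 body-led, 23 of 26 level and 9 of 10 apical-led genes. NVE6993, named after its values were seen, had 130 counts in replicate 1 and 4 in replicate 2, and was at 0 to 0.271 CPM in the late apical libraries. It was called lower in the late apical tissue, as was NVE253. In replicate 2, however, NVE6993 was at 0.261 CPM, within the range of its late apical libraries. Without replicate 1 the mid-planula apical group holds 1 library, so calls of that fit are not read. The whole rule applied without replicate 1 gave 86 genes, 53 of which were among the 80. Without this library the fitted body rise exceeded the fitted apical change in 32 of 44 body-led genes, in 26 of 26 level and in 10 of 10 apical-led genes. It fell below the apical change in the other 12 body-led genes, among them NVE1213 (-3.34), NVE18257 (-3.18), NVE1337 (-2.75) and NVE15510 (-0.16) on the log2 scale. These 4 did not exceed 0.661 CPM in any apical library other than mid-planula replicate 1. In mid-planula apical replicate 2, NVE1213, NVE18257 and NVE1337 held 0 counts and NVE15510 held 2. Their negative values are thus set against a level under the floor of 3 counts.

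**Figure D4:**
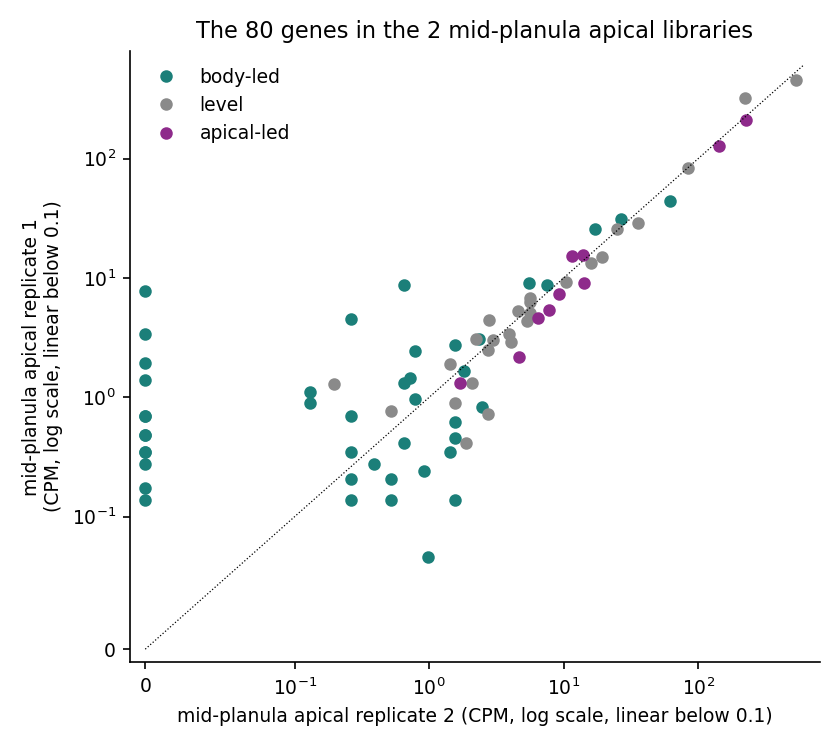
CPM of the 80 genes in mid-planula apical replicate 2 (x axis) and replicate 1 (y axis), each axis logarithmic above 0.1 CPM and linear below it, coloured by class. The dotted line marks equal levels, and 21 of the 44 body-led genes lie at least 2-fold above it, against 1 of 26 level and 0 of 10 apical-led genes.

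The apical-led genes were higher in the apical tissue in the mid-planula, and their body level caught up with or went past it in the late planula. NVE20160 was at 71.7 and 24.9 CPM in the mid-planula body and at 211.4 and 224.5 CPM in the mid-planula apical tissue. In the late planula it was at 298.5, 563.7 and 568.8 CPM in the body and at 231.1, 262.4 and 199.0 CPM in the apical tissue. Its apical over body ratio thus went from 4.51 to 0.484, with no overlap between the tissues at either stage, while the apical libraries of the 2 stages overlapped. NVE16364 was at 34.2 and 38.7 CPM in the mid-planula body and 99.0, 96.1 and 138.8 CPM in the late body, against 128.0 and 143.5 CPM in the mid-planula and 150.7, 111.2 and 111.0 CPM in the late apical tissue. The tissues were far apart in the mid-planula and overlapped in the late planula, with a ratio of 1.12. NVE12147 behaved alike, at 2.83 and 3.87 CPM in the mid-planula body, 13.5, 16.5 and 25.5 CPM in the late body, 15.4 and 11.6 CPM in the mid-planula apical tissue and 15.9, 11.2 and 14.99 CPM in the late apical tissue. The late tissues of NVE12147 overlapped as well.

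NVE3047 and NVE3048, which are consecutive in number, were both apical-led. NVE3048 was at 4.35 and 4.50 CPM in the mid-planula body and 21.1, 31.9 and 33.1 CPM in the late body, and at 9.10 and 14.1 CPM in the mid-planula and 15.6, 14.9 and 9.72 CPM in the late apical tissue. NVE3047 was at 1.60 and 1.89 CPM in the mid-planula body and 9.46, 12.1 and 16.5 CPM in the late body, and at 4.65 and 6.38 CPM in the mid-planula and 6.004, 3.93 and 2.97 CPM in the late apical tissue. In both genes the apical tissue was the higher in the mid-planula and the body in the late planula, with no overlap at either stage. How reads shared by overlapping or near-identical gene models were counted was not stated, so these genes may not be independent. NVE13534 was at 3.23 and 2.84 CPM in the mid-planula body, 10.3, 9.08 and 14.7 CPM in the late body, 7.36 and 9.19 CPM in the mid-planula apical tissue and 3.80, 3.16 and 5.12 CPM in the late apical tissue. NVE13534 was the only apical-led gene whose mid-planula apical libraries all lay above the late ones.

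The rule did not choose genes by the difference between the tissues within a stage, but it used the same libraries and left out the genes confined to the body, which are the most different between the tissues. It also favours a high level in the late body and a low level in the mid-planula body, so the tissue differences are given as a description. In the mid-planula 25 of the 80 genes passed edgeR's test as higher in the body, against 2.54% of all genes, and all 25 were body-led. As higher in the apical tissue 4 of the 80 passed, against 1.75% of all genes, and these were the apical-led NVE20160, NVE16364, NVE3048 and NVE12147. In the late planula 71 of the 80 passed as higher in the body, against 6.19% of all genes. These were 44 of 44 body-led, 23 of 26 level and 4 of 10 apical-led genes.

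The separation of the libraries was counted in the same way. In the late planula every body library was above every apical library for 75 of the 80 genes, against 14.4% of all genes. In the mid-planula this was so for 51 of the 80, against 24.8%, and the apical libraries were above the body libraries for 16, against 18.8%. The median fitted apical over body difference of the body-led genes was -2.61 on the log2 scale in mid-planulae and -5.87 in late planulae. The medians were -0.11 and -2.03 in the level class and 1.42 and -1.04 in the apical-led class, whereas over all genes tested they were -0.07 and -0.01. The mid-planula medians follow from how the classes were formed.

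**Figure D5:**
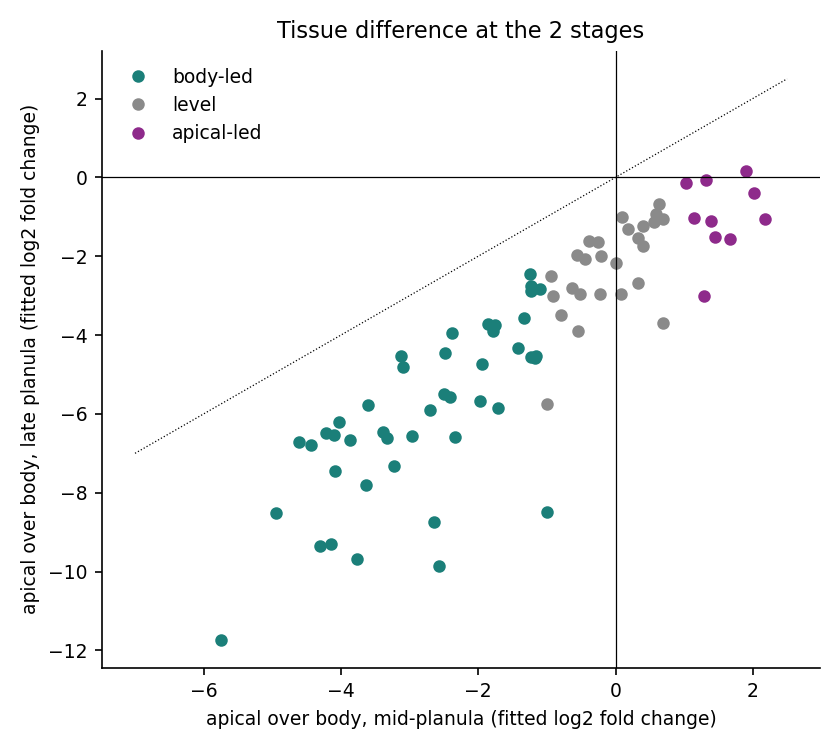
Fitted log2 apical over body difference of the 80 genes in the mid-planula (x axis) and the late planula (y axis), coloured by class, with negative values for genes higher in the body. The dotted line marks equal differences. The 80 genes lie below it, and most apical-led genes are above 0 in mid-planulae and below 0 in late planulae (class medians 1.42 and -1.04).

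Genes fell closely on both sides of the limit of the rule. Just inside the 2-fold limit lay NVE15510, NVE11265 and NVE8748, whose lowest late body library was 2.02, 2.02 and 2.03 times the highest mid-planula body library. NVE15678, NVE10740 and NVE2514 lay just outside it, at 1.99, 1.99 and 1.97 times. NVE15510 was at 13.5 and 9.18 CPM in the mid-planula body and at 32.0, 27.2 and 46.6 CPM in the late body. NVE15678, left out, was at 11.7 and 11.6 CPM and at 25.7, 24.9 and 23.3 CPM, so replicates of the excluded gene lay closer together than those of the included gene.

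The 368 genes that met the body rise but not the apical limit are given for comparison. In the apical tissue 124 of them (33.7%) passed as higher at the later stage, against 1.18% of all genes. In the body 266 (72.3%) did so, against 1.99% of all genes. The 368 genes were chosen by their body rise and by missing the apical limit, so both counts are partly built in. In the late planula 36.1% of the 368 genes passed as higher in the body (133 genes), against 6.19% of all genes. In the mid-planula 15.8% did so (58 genes), against 2.54%. The rule itself separates the 2 sets by their apical change, and the difference between them was not tested. The median body rise of means was 4.22 in the 368 genes and 3.97 in the 80 genes.

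The markers of gland/secretory-cell type 4, which is enriched in the body, were NVE23810, NVE26086, NVE9234 and NVE10584. They were to be kept out of the set by name, but none met the 2-fold limit between the stages. Their summed level was 1183 and 1597 CPM in the mid-planula body, 3340, 1734 and 2815 CPM in the late body and 7.49 and 6.64 to 9.72 CPM in mid-planula apical replicate 2 and the late apical libraries, with 25.3 CPM in mid-planula apical replicate 1. The sum was higher in each late than in each mid-planula body library, by a small margin in late replicate 2. In that library NVE23810 alone gave 1049 CPM. The other markers were lower in it than in mid-planula body replicate 2, at 400.9 against 402.0 CPM for NVE26086, 262.1 against 288.7 CPM for NVE9234 and 22.2 against 24.5 CPM for NVE10584. Of the 4 markers, 0 passed an adjusted p of 0.05 between the stages in the body in edgeR or DESeq2. Over all genes, 1.99% passed as higher in the late body in edgeR and 8.04% in either direction in DESeq2. An unadjusted p under 0.05 in edgeR was reached by 0 of the 4, against 17.4% of all genes. With 4 genes, counts of 0 do not set the markers apart from all genes. The part of the marked cells in the rise of the 80 genes was not tested. Among the other genes listed for exclusion by name, LWamide (NVE9858), a neuropeptide gene, met the body rise and the level, but its mean apical level rose to 3.56 times the mid-planula mean.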

How the data were processed

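RNA was measured in 10 libraries. According to the submitters' processing notes and the paper, adapters were removed by the authors using Trimmomatic 0.36, mapping was done in STAR (Bowtie2 is also named) and reads per gene model were obtained using HTSeq 0.6. The deposited values are raw counts, with no normalisation. The genome build, the use of strand and the counting of overlapping or near-identical gene models are not given in the sources used here. No pipeline step normalised depth, so counts were scaled here by TMM.

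Levels are CPM after TMM scaling. Genes were tested by the quasi-likelihood test of edgeR 4.0.16 (R 4.3.3) on the deposited counts in 1 fit of 4 groups (stage by tissue), after filterByExpr (minimum count 10, minimum total 15, 21683 gene models), with Benjamini-Hochberg adjustment over all genes and a threshold of 0.05. Alternatives were RLE and upper-quartile scaling, DESeq2 1.42.0, other filters, compared groups alone, replicate blocks, other limits of the rule and leaving out each library. Halving the counts was added after the data had been seen. The test was run on simulated counts first.

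The set, its rule and the gene lists were chosen with earlier results of these data known. Named genes were those the paper names, the 8 with the highest late body level, the 8 with the largest fitted body rise among those at 20 CPM or more, the 5 with the highest mid-planula apical over body ratio (mid apical at least 2 CPM), the 5 with the lowest late over mid apical ratio (mid apical at least 5 CPM), the 3 just inside and the 3 just outside the 2-fold limit, and the genes the rule drops by name. Others are said to be chosen after their values were seen. Gene model identifiers could not be matched to the annotation table at hand, so positions, sequences and most names are not given.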

Additional observations from a re-analysis of the deposited data

Results flagged for a closer look

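In 3 genes of the set the change from mid to late planula differed between the tissues by edgeR's test of the difference itself, with Benjamini-Hochberg adjustment over all genes. The body minus apical difference of the log2 changes was 3.35 (SE 0.41, adjusted p = 0.0144) for NVE253, 3.32 (SE 0.43, adjusted p = 0.0232) for NVE3642 and 4.395 (SE 0.50, adjusted p = 0.0144) for NVE6370. The rule chose genes on these changes, so the p-values do not stand as evidence of a tissue difference. Without mid-planula apical replicate 1 the differences were 3.52, 3.10 and 4.39, from a fit with 1 mid-planula apical library, in which no call is read.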

How the results depend on the processing

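The number of genes chosen depended on the limits of the rule. A body limit of 1.5-fold gave 176 genes and 3-fold gave 26, an apical limit of 1.0 gave 53, requiring every late apical library to be less than 25% above the lowest mid-planula one gave 20, and a level minimum of 20 or 1 CPM gave 36 or 147. Leaving out 1 library gave 75 to 147 genes. The median log2 late over mid change was also taken over the 12020 genes with a mean late body level of at least 5 CPM. Without TMM factors it was -0.32 in the body and -0.33 in the apical tissue, against 0.005 and 0.038 with them. Without these factors 79 in place of 53 of the 80 genes were lower in the late apical tissue, while all 80 stayed higher in the late body. Of the 76 genes then chosen, 47 were among the 80.

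The calls among the 80 genes depended on the test. For late above mid in the body, DESeq2 called 69 (8.04% of all genes), against 40 in edgeR. Leaving out 1 late planula library gave 12 to 51. The 12 came without body replicate 3 (0.362% of all genes), the 51 without apical replicate 2 (3.61%). Shares of all genes here count both directions. Leaving out a mid-planula library leaves 1 in its group, and the calls of those fits are not read. For the apical stage change DESeq2 called 5 (6.66% of all genes) and compared groups alone 0 of the 60 tested (1.12%), against 2. Leaving out 1 late planula library gave 0 to 2, with 0 without body replicate 3 (0.919%) or apical replicate 3 (0.282%). For the difference between tissues DESeq2 called 34 (0.515% of all genes) and leaving out 1 library 0 to 11, against 3, with 11 without mid-planula apical replicate 2 (0.237%) and 0 without mid-planula body replicate 1 or 2, mid-planula apical replicate 1, late planula body replicate 3 or late planula apical replicate 3. Requiring at least 10 counts in every library, which leaves 42 of the 80 genes to test, gave 10 of 42 calls between the mid-planula tissues (3.78% of all genes) in place of 29 of 80, and 34 of 42 between the late tissues (10.9%) in place of 71 of 80. Leaving out 1 library gave 13 (without mid-planula body replicate 1) to 33 in the mid-planula and 60 to 71 in the late planula. For the 4 gland type 4 markers, leaving out 1 late planula library gave 0 calls between the stages in the body, from which nothing is read with so few genes. Halving all counts, chosen after seeing the data, changed no count of calls by over 1.5 times.

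With the replicate number as a block within a stage, the difference between tissues was called in 16 of the 80 genes (0.208% of all genes), and as a block across stages the body change was called in 6 (0.291%) and the apical change in 0 (0%). Deviations of same-numbered body and apical libraries correlated at 0.155 and 0.155 in mid-planulae and at 0.235, 0.49 and -0.0918 in late planulae. Between the stages, within a tissue, the correlations were -0.341 to -0.0975. With 2 or 3 libraries per group these values cannot decide whether the numbers mark pairs. The main fit used no pairs.

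Values that turned were the mid-planula tissue difference of NVE12992, at -0.19 without mid-planula body replicate 2 and -0.20 without mid-planula apical replicate 1 (-0.20 to 0.46 over all left-out libraries), and the late tissue difference of NVE16364, at -0.0033 without late planula apical replicate 1 (-0.0033 to 0.34). Without mid-planula apical replicate 1 the body minus apical difference was -3.34 for NVE1213 (-3.34 to 6.92 over all left-out libraries), -3.18 for NVE18257 (-3.18 to 5.91), -2.75 for NVE1337 (-2.75 to 3.54) and -0.16 for NVE15510 (-0.16 to 2.87). The causes were not tested. With 2 mid-planula libraries per tissue, the precision of every mid-planula level is limited.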
